A study of Ovis aries with 6 samples.

Results

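The inhibin and activin subunit genes INHA, INHBA and INHBB and the follistatin genes FST and FSTL3 were followed through single cells of the sheep ovary. They were chosen by name as the 3 subunits and the 2 binding proteins of the ovarian activin system. They are 5 of the 30574 genes in the deposited matrices. Each of 6 Hu ewes in oestrus gave 1 ovary, which was digested to single cells and made into 1 library with a 3′ kit that counts unique molecular identifiers (UMI, one per captured transcript). The 3 HLS ewes had litters of at least 3 lambs and the 3 LLS ewes litters of fewer than 2. No treatment or engineered allele was involved, the follicles were not dissected apart, and each animal was sampled once, so that the ewe was the replicate throughout.

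Inhibin is a dimer of the α subunit, encoded by INHA, with a β subunit, encoded by INHBA (βA) or INHBB (βB). Dimers of β subunits without the α subunit form activin, which raises the secretion of follicle-stimulating hormone (FSH) by the pituitary, whereas inhibin lowers it. Follistatin, encoded by FST, and the related FSTL3 bind activin and keep it from its receptors, and granulosa cells of growing follicles are the best known ovarian source of inhibin and follistatin.

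After filtering, 36457 cells were retained, of which 2726 (256 to 877 per ewe) were granulosa-like, and the libraries held 43329214 to 75549906 UMI. Libraries shared 139 barcodes among the retained cells and 0 among the granulosa-like cells. Clusters were formed without the 5 genes and named from markers that do not include them. Of the 8 granulosa markers, 7 were highest in the granulosa-like class, among them FSHR (FSH receptor) at 1.06 ± 0.189 UMI per 10000 UMI (SD, n = 6 ewes) against 0.00963 in the next class, while TNNI3 was higher in theca-like cells (2.75 against 2.29). Theca-like cells carried LHCGR (9.36 ± 2.61), CYP17A1 (3.27 ± 1.65) and INSL3 (3.16 ± 2.79), and 4 of 5 theca markers were highest there, the exception being STAR (0.345, against 0.374 in immune-like cells). A class of 4398 cells scored highest for stromal markers but was led by the contractile genes ACTA2 and TAGLN, and is called ACTA2-led.

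Granulosa-like cells were the main site of INHA, INHBA, INHBB and FST. They made up 7.48% of the retained cells and held 73.9% of all INHA UMI, 65.2% of INHBA, 66.4% of INHBB and 76.2% of FST, but only 25.4% of FSTL3. All but FSTL3, or 4 of the 5 genes, were higher in granulosa-like cells than in each of the 6 other classes in every ewe, which was so for 2.53% of the 17909 genes with at least 50 UMI. Taken 1 class at a time, all 5 genes were higher in every ewe than in theca-like (15.8% of genes were), stromal-like (17.1%), perivascular-like (18.3%), endothelial-like (22.4%) and immune-like cells (25.5%), and 4 than in ACTA2-led cells (16.3%).

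INHA, the subunit that makes a dimer an inhibin, lay mostly in granulosa-like and theca-like cells, the latter with 17.6% of its UMI. Its granulosa-like level was 2.52, 5.23 and 1.84 UMI per 10000 UMI in HLS ewes 1, 2 and 3, and 7.94, 2.30 and 3.49 in LLS ewes 1, 2 and 3. In theca-like cells it was 0.869, 0.632 and 0.687 in HLS and 0.962, 0.856 and 0.597 in LLS. The ranges of these 2 classes did not overlap, and the theca-like level lay above that of the 5 remaining classes in each ewe. The 105 luteal-like cells of LLS ewe 3, of 106 in that class, held 0.845, above the theca-like value of that ewe. Across the stromal-like, ACTA2-led, perivascular-like, endothelial-like and immune-like cells, no ewe exceeded 0.0576.

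On a log2(CPM + 1) scale the granulosa-like level of INHA exceeded the theca-like level by 1.94 ± 0.77 (SD, n = 6 ewes), with a two-sided exact sign-flip p = 0.03125, the smallest that 6 ewes allow. The theca-like level exceeded that of the next class, ACTA2-led cells, by 4.17 ± 0.47 with the same p. Adjusted over the 55 pairs tested for the 5 genes (all 30 granulosa-like pairs and the neighbours in order), each of these p-values became 0.0537, so that no pair passed 0.05. Perivascular-like, immune-like and stromal-like cells could not be ordered for INHA (exact p = 0.46875 and 0.75 for neighbouring pairs).

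INHBA had a wider distribution. Its granulosa-like level was 2.17, 3.54 and 1.62 UMI per 10000 UMI in HLS ewes and 10.6, 1.45 and 3.34 in LLS ewes, so that LLS ewe 1 stood above the other 5. The means of theca-like (0.382 ± 0.147), ACTA2-led (0.280 ± 0.0907), stromal-like (0.277 ± 0.0719) and immune-like cells (0.257 ± 0.186) lay close together. None of the neighbouring pairs among those 4 classes had every ewe on one side (exact p from 0.21875 to 0.96875). Endothelial-like cells had the lowest INHBA level (0.0223 ± 0.00537), below perivascular-like cells in all 6 ewes (log2 difference 1.77 ± 0.49, exact p = 0.03125).

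INHBB, the other β subunit, was 0.815, 1.43 and 1.26 UMI per 10000 UMI in granulosa-like cells of HLS ewes and 1.94, 1.31 and 1.31 in LLS ewes. Relative to its mean it had the smallest SD of the 5 genes over ewes, and LLS ewe 1 was again the highest. The next classes were ACTA2-led (0.133 ± 0.0511) and stromal-like cells (0.132 ± 0.0728), which granulosa-like cells exceeded in all 6 ewes by 3.22 ± 0.27 and 3.26 ± 0.55 on the log2 scale. Theca-like cells held little INHBB (0.0654 ± 0.0349), so that 84.0 ± 9.92% of their β-subunit UMI came from INHBA.

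FST, which encodes follistatin, had the most UMI of the 5 genes. Granulosa-like cells of HLS ewes held 2.51, 10.4 and 5.01 UMI per 10000 UMI and those of LLS ewes 7.90, 4.29 and 7.16. Theca-like cells came next among the 7 classes at 0.389 ± 0.133, below granulosa-like cells in all 6 ewes by 3.70 ± 1.11 on the log2 scale. Stromal-like (0.162 ± 0.0201) and endothelial-like cells (0.143 ± 0.0360) followed and were not separated from each other (exact p = 0.40625). Outside the 7 classes, the 75 Schwann-like cells of 4 ewes held 1.35 ± 0.598, from 23 UMI.

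FSTL3, the follistatin-like protein, did not share that pattern. Its granulosa-like level was 0.25, 0.199 and 0.274 UMI per 10000 UMI in HLS ewes and 0.595, 0.693 and 0.268 in LLS ewes. ACTA2-led cells held 0.230 ± 0.0942, and granulosa-like cells exceeded them in 4 of 6 ewes only (log2 difference 0.60 ± 1.02, exact p = 0.21875). Stromal-like, perivascular-like and theca-like cells held 0.167 ± 0.0943, 0.142 ± 0.0439 and 0.0935 ± 0.0347. Small classes outside the 7 compared had higher means: the luteal-like cells of LLS ewe 3 held 225 FSTL3 UMI (1.94 per 10000 UMI, with no replicate), and Schwann-like cells 1.30 ± 0.894 over 4 ewes, from 75 cells and 19 UMI.

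**Figure D1:**
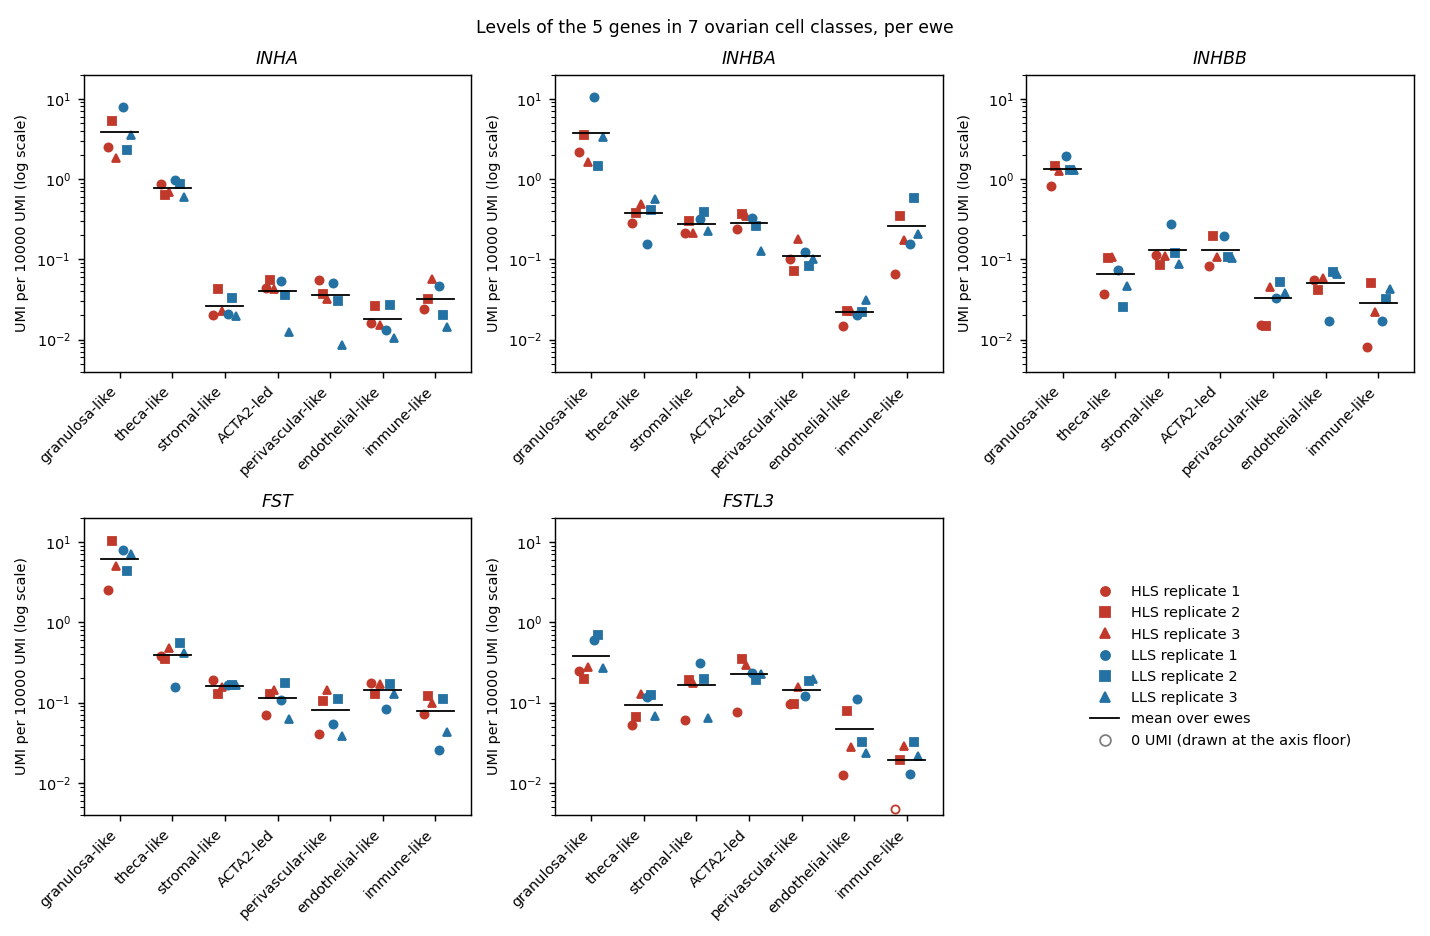
UMI per 10000 UMI of each gene (log scale) in 7 cell classes, 1 point per ewe, with the mean over ewes as a bar. All 6 granulosa-like points of INHA, INHBA, INHBB and FST lie above the points of the other classes, theca-like INHA (0.597 to 0.962) forms a second level, and FSTL3 shows no such step.

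The share of cells with at least 1 UMI was also compared at equal depth. After every cell was thinned to 3000 UMI, which left 2297 of 2726 granulosa-like cells, INHA was found in 25.6 ± 12.3% of them (SD, n = 6 ewes), INHBA in 19.1 ± 7.17%, INHBB in 27.1 ± 5.91%, FST in 33.7 ± 12.6% and FSTL3 in 8.19 ± 4.57%. Unthinned shares were 35.1 ± 14.1%, 32.6 ± 10.2%, 44.7 ± 6.63%, 46.0 ± 10.7% and 16.8 ± 7.19%. In immune-like and endothelial-like cells, taken as a guide to the signal that free RNA can give, thinned INHA shares were 0.757 ± 0.545% and 0.644 ± 0.249%. Free RNA itself was not measured, and expression by these cells would be counted too. The median depth before thinning ran from 6453 to 14018.5 UMI in the granulosa-like, 4599.5 to 6025 in the immune-like and 6008 to 11449 in the endothelial-like cells that were kept.

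INHA was found in 15.4 ± 1.73% of thinned theca-like cells (12.8 to 17.7%), a range that lay within the 9.68 to 43.6% of granulosa-like cells, and the unthinned means of both classes were 35.1%. FST was found in 3.69 ± 0.762% of thinned endothelial-like cells against 2.06 ± 1.48% of immune-like cells. INHBA was found in 4.56 ± 3.13% of immune-like cells against 0.739 ± 0.190% of endothelial-like cells. Both ranges were wide in immune-like cells (0.699 to 4.93% for FST and 0 to 9.33% for INHBA), and LLS ewe 2 gave 144 of their 328 INHBA UMI.

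Granulosa-like cells formed 9 states, and the subunits were spread over them very unequally. A group of 3 states expressed INHA and FST at high levels. The AMH state (237 cells, led by AMH, HSD17B1, IHH, CCND2 and TNNI3) carries anti-Müllerian hormone and oestradiol-forming HSD17B1. The cycling state (192 cells) was led by TOP2A, CENPF, UBE2C, CENPE and LOC114109701. The CYP19 state (140 cells, led by LHCGR, TNFAIP6, CYP19, LOC101123588 and LOC101106720) carries aromatase and the luteinizing hormone receptor.

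In the CYP19 state, INHA reached 37.3 UMI per 10000 UMI in HLS ewe 2 and 19.2 in LLS ewe 1, the 2 ewes with at least 20 such cells. INHBA reached 46.0 and 28.2 in the same ewes. These were the highest levels of both genes in any state, but 105 of the 140 cells came from LLS ewe 1 and 27 from HLS ewe 2. Theca markers in this state were mixed, with CYP11A1 at 3.35 ± 2.01 and LHCGR at 4.48 ± 0.912 (n = 2 ewes), INSL3 and STAR at 0.0239 and 0.0477, and no CYP17A1 among 497269 UMI, which allows up to 0.0603 per 10000. The part of theca cells in this state was not tested.

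In the AMH state INHA was 6.44 and 12.9 UMI per 10000 UMI in HLS ewes 2 and 3 and 10.8 in LLS ewe 2, and FST was 13.8, 22.8 and 17.5. In the cycling state INHA was 8.76, 10.2 and 7.98 and FST 19.7, 19.9 and 18.0 in those 3 ewes. INHBA was more variable in the AMH state, at 2.88, 13.8 and 2.93, than in the cycling state, at 6.0, 6.78 and 3.27. The AMH and cycling states thus overlapped in all of these genes.

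The early-like, ANGPT2 and PPP1R1A states had FST at lower levels and less INHBA than the AMH, cycling and CYP19 states in their means. The ANGPT2 and PPP1R1A states bear the names of leading genes, as their best marker-list scores (0.203 and 0.245) were under 0.5. ANGPT2 itself was 3.39 ± 1.85 in the AMH and 3.10 ± 1.11 in the ANGPT2 state (SD, n = 3 and 5 ewes). PPP1R1A was 3.70 ± 1.74 in the early-like and 3.85 ± 2.34 in the PPP1R1A state (n = 6 each). The early-like state (331 cells, led by PTPRD, COCH, WT1, CCL25 and PPM1K) held FST at 6.12 ± 3.22, INHA at 1.57 ± 0.767 and INHBA at 0.107 ± 0.0506 (SD, n = 6 ewes), the last from 18 UMI in all. The ANGPT2 state (747 cells, led by ANGPT2, SLC26A2, NMB, IL17RB and SIMC1) held INHBB at 1.08 ± 0.347, FST at 2.62 ± 1.13 and INHBA at 0.158 ± 0.0569 (n = 5 ewes). The PPP1R1A state (322 cells, led by PPP1R1A, ISYNA1, GNG11, GSTM3 and PHGDH) had a median of only 2579.5 UMI per cell, with FST at 3.00 ± 1.71, INHA at 2.15 ± 1.56 and INHBA at 0.689 ± 0.718 (n = 6 ewes), and its INHBB mean of 0.301 ± 0.242 was the lowest of the 9 states.

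The 3 mural-like states had β subunits and FSTL3 but the lowest INHA means of the 9 states. They were led by MMP1, TWIST1, MUSTN1, SELENOP and PLIN2 (377 cells), by LOC114108841, the interferon-responsive MX1 and ISG15, LOC101108817 and SERPINA14 (210 cells, 207 from LLS ewe 2) and by MMP9, FN1, PPP1R14A, C14H19orf33 and FBN1 (170 cells). LOC114108841 and LOC101108817 were also the leading genes of the B-cell-like class, 54 of whose 64 cells came from LLS ewe 2, and the part of B cell RNA in this state was not tested. INHA was 0.103 ± 0.0925 (n = 5 ewes) in the MMP1 state, 0.255 in the 1 ewe of the MX1 state and 0.0891 ± 0.0514 (n = 4) in the MMP9 state. FSHR in the same states was 0.853, 1.07 and 0.679, beside 1.06 in the whole class. The mural-like name rests on scores of 1.23, 1.67 and 1.46, in the same order, for a list of 9 mural markers. All 9 were found in at least 10% of the cells of each state. Only 2, 0 and 0 of them were among the 10 leading genes.

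INHBA in the MMP1 state was 1.01 ± 0.344 and in the MMP9 state 1.84 ± 0.0566, the latter with 1.79, 1.92, 1.80 and 1.83 in HLS ewes 1 and 3 and LLS ewes 2 and 3. FSTL3 had its highest mean among the states found in several ewes in the MMP9 state, at 0.796 ± 0.456. It was 0.358 ± 0.233 in the MMP1 state and 1.13 in the MX1 state. In the CYP19 state its mean was 0.644, with 1.29 in LLS ewe 1 and no UMI in HLS ewe 2. FST, by contrast, stayed at 0.341 ± 0.117 and 0.397 ± 0.267 in the MMP1 and MMP9 states. FST was thus highest in the AMH and cycling states, where FSTL3 was low.

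**Figure D2:**
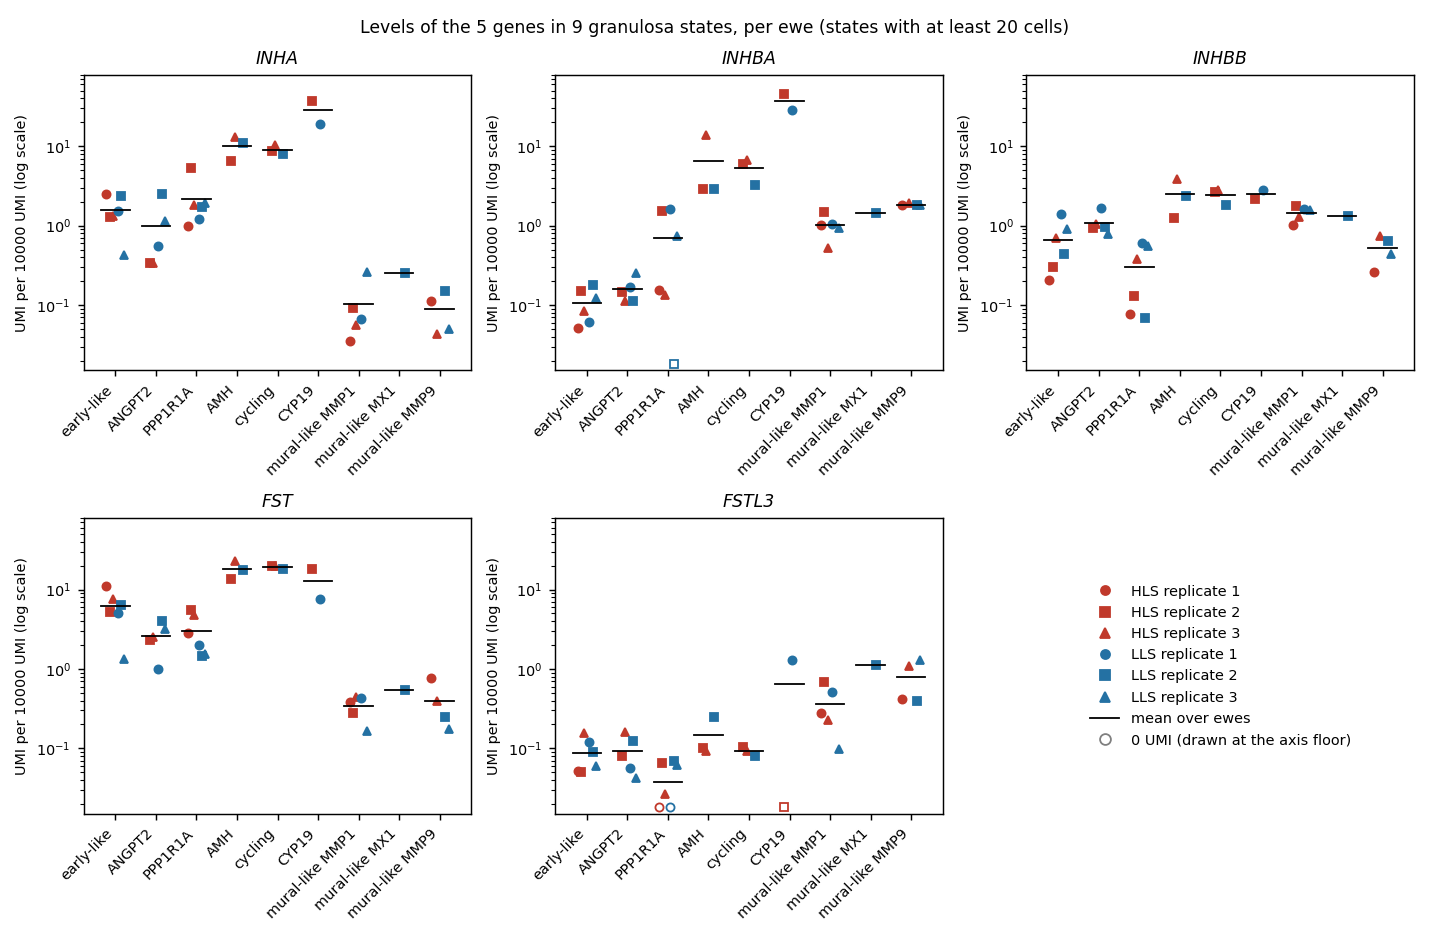
UMI per 10000 UMI of each gene (log scale) in the 9 granulosa states, 1 point per ewe with at least 20 cells of the state. INHA and FST are higher in the AMH, cycling and CYP19 states than in the 3 mural-like states. INHBA has its lowest means in the early-like and ANGPT2 states, but 1 of the 6 PPP1R1A points is at 0 UMI. FSTL3 means are higher in the mural-like states than in the early-like and ANGPT2 states. Points of 0 UMI are open and drawn at the axis floor.

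Within ewes, INHA was higher in the early-like than in the MMP1 state in all 5 ewes with both (log2 difference 3.56 ± 1.83, SD), FST likewise (3.70 ± 0.62), while INHBA and FSTL3 were lower in all 5 (log2 differences of -3.50 ± 0.76 and -1.95 ± 1.26). Each had an exact sign-flip p = 0.0625, the smallest that 5 ewes allow. Every shared ewe lay on the same side in 93 of 125 pairs of states, over the 5 genes. The share over all genes was not computed, so this count has no baseline. Many pairs rest on 2 or 3 ewes, where the smallest exact sign-flip p is 0.5 or 0.25. No pair passed 0.05 after adjustment over the 125, and 1 did before it (INHBB, early-like above PPP1R1A by 1.15 ± 0.74 in 6 of 6 ewes, exact p = 0.03125). Pairs found in 5 ewes or fewer cannot reach 0.05 even before adjustment. Only early-like and PPP1R1A were found together in 6 ewes, so no pair could have passed after adjustment over the 125.

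Most INHA UMI of each ewe lay in 3 states, which were 6.74 to 49.6% of its granulosa-like cells. The AMH, cycling and CYP19 states together were 23.6 ± 20% of granulosa-like cells (n = 6 ewes) and held 85.7 ± 9.60% of the INHA UMI, 74.1 ± 15.8% of FST, 72.7 ± 22.1% of INHBA, 40.3 ± 22.6% of INHBB and 16.9 ± 23.8% of FSTL3. In HLS ewe 1 only 5 cells of the CYP19 state held 573 of its 968 INHA UMI. The 3 mural-like states were 31.3 ± 24.4% of the cells and held 1.81 ± 2.39% of INHA and 72.9 ± 23.9% of FSTL3. These shares describe the cells recovered after digestion, and the part that dissociation played in them was not tested.

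The balance of the β subunits differed between states. Of all INHBA and INHBB UMI, INHBA supplied 10.6% in HLS ewe 3 and 4.17, 28.6 and 11.8% in LLS ewes 1, 2 and 3 in the early-like state. In the ANGPT2 state it supplied 13.8 and 9.72% in HLS ewes 2 and 3 and 9.09, 10.3 and 24.5% in the LLS ewes. Most β-subunit UMI of both states thus came from INHBB in every ewe with at least 10 such UMI.

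Elsewhere INHBA supplied more. Its share was 40.2 ± 8.06% in the MMP1 state (n = 5 ewes), 67.9 ± 11.4% in the AMH state and 68.2 ± 3.22% in the cycling state (n = 3 each), and 78.2 ± 7.01% in the MMP9 state (n = 4). In the CYP19 state it was 95.5% in HLS ewe 2 (95% Wilson interval 92.9 to 97.2%) and 91.0% in LLS ewe 1 (89.3 to 92.5%); such intervals cover counting error only. The PPP1R1A state spread from 26.3 to 92.0% over 4 ewes and had no common value.

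The MMP1 and MMP9 states, both mural-like, differed in the 3 ewes with both, and MMP1 minus MMP9 was -41.2 ± 3.38 percentage points (exact sign-flip p = 0.25, the smallest 3 ewes allow). The ANGPT2 state lay below the MMP1 state in 4 of 4 ewes, with a difference of -23.6 ± 9.35 points (exact p = 0.125, the smallest for 4). Adjusted over 24 pairs these p-values were both 0.6. The 2 genes differ in sequence and may be captured with different efficiency, so the shares are compared between states and not read as protein ratios.

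**Figure D3:**
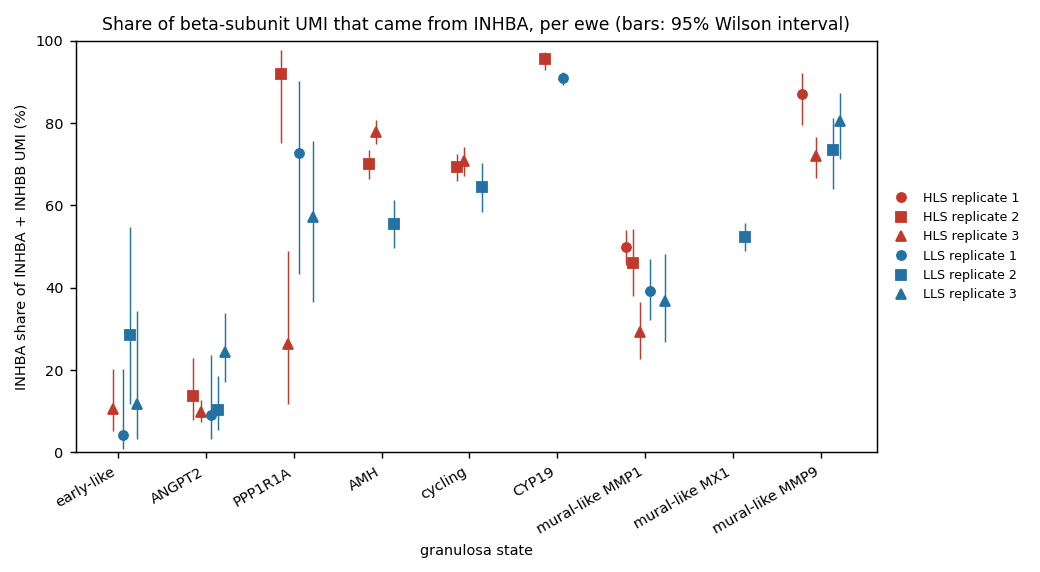
Percent of INHBA and INHBB UMI that came from INHBA in each granulosa state, 1 point per ewe with at least 20 cells and 10 such UMI, with 95% Wilson intervals as bars. Shares lie between 4.17 and 28.6% in the early-like and ANGPT2 states and above 90% in the CYP19 state.

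Whether a cell could make inhibin or activin depends on which subunits it holds together. Among granulosa-like cells thinned to 3000 UMI, 12.7% had INHA with a β subunit, 12.9% INHA only, 25.7% a β subunit only and 48.6% neither (means over 6 ewes). Joint detection was 10.2% by the product of the 2 single shares. In the AMH and cycling states 46.6 and 46.5% of cells had INHA with a β subunit, and 4.25 and 5.76% had a β subunit only (n = 3 ewes each). In the MMP1 and MMP9 states 1.07 and 0.658% had both and 49.7 and 43.0% a β subunit only (n = 5 and 4 ewes).

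The products were 43.6 and 41.9% in the AMH and cycling states and 1.09 and 1.22% in the MMP1 and MMP9 states, close to the joint shares. Only LLS ewe 1 kept at least 20 cells of the CYP19 state after thinning (47 of 105), and other ewes were not counted. Of the 47, 59.6% had both and 27.7% a β subunit only. A cell with no UMI at this depth may still hold the transcript, so the shares rank states and do not count inhibin-producing cells.

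**Figure D4:**
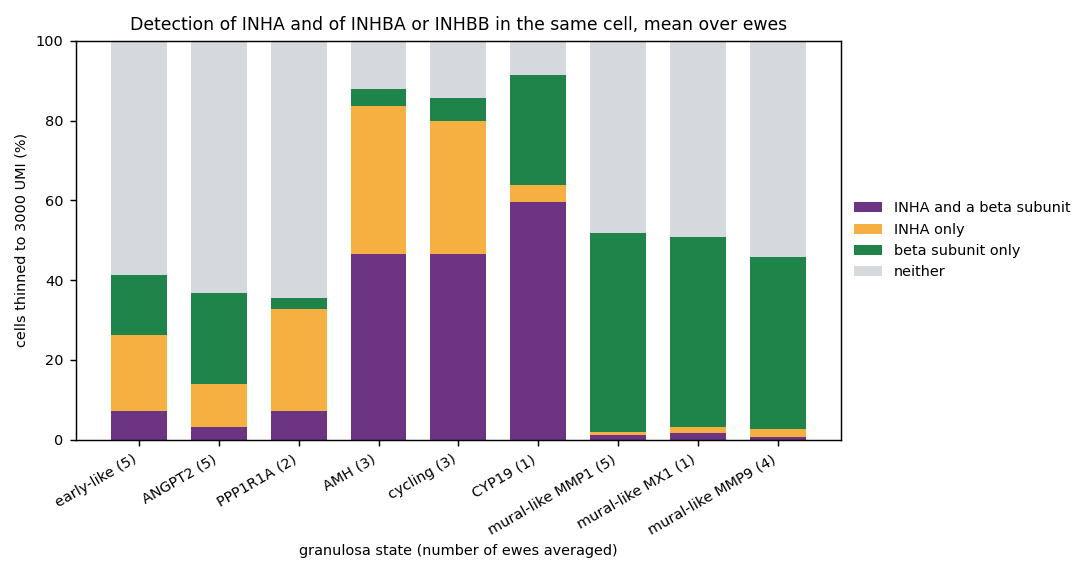
Percent of cells of each granulosa state, thinned to 3000 UMI, with INHA and a β subunit, with 1 of them, or with neither, averaged over the ewes given in brackets. INHA with a β subunit is the largest share in the AMH, cycling and CYP19 states. In the 3 mural-like states a β subunit without INHA (43.0 to 49.7%) and neither (48.2 to 54.2%) make up nearly all cells.

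Across the 35 sums of ewe and state with at least 20 cells, FST was the gene most like INHA (Pearson r = 0.91 on the log2 scale, of 1583 genes), followed by TRIB2 (0.88) and LOC101106720 (0.88). The genes most like FST were INHA (0.91), TNNI3 (0.90) and TRIB2 (0.90). For INHBA they were SERPINE2 (0.81), ECE1 (0.70) and LMAN1 (0.67), and for INHBB LMAN1 (0.76), LOC121817232 (0.76) and CDK6 (0.76). For FSTL3 they were EIF4G2 (0.85), HIPK2 (0.81) and GNB1 (0.79).

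Among the 5 genes themselves, INHBA and INHBB had r = 0.59, INHA and INHBA 0.29, and INHA and FSTL3 -0.47. The points share ewes, libraries and depth, and the values describe these 35 sums only.

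HLS and LLS ewes were compared to ask whether litter size goes with a different inhibin and activin profile. INHA averaged 3.19 ± 1.79 UMI per 10000 UMI in granulosa-like cells of HLS ewes and 4.58 ± 2.98 in LLS ewes, INHBA 2.44 ± 0.990 and 5.14 ± 4.84, INHBB 1.17 ± 0.319 and 1.52 ± 0.363, FST 5.98 ± 4.04 and 6.45 ± 1.90, and FSTL3 0.241 ± 0.0385 and 0.518 ± 0.222 (SD, n = 3 each). The groups overlapped for every gene.

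In the quasi-likelihood test of edgeR, 0 of the 5 genes were called in granulosa-like cells, as were 0% of the 11852 genes tested. The log2 fold change of HLS over LLS was -0.31 ± 0.50 (SE) for INHA, -0.85 ± 0.63 for INHBA, -0.20 ± 0.23 for INHBB and 0.05 ± 0.44 for FST. FSTL3 had -0.92 ± 0.34 and was the 1 gene with an unadjusted p under 0.05 (edgeR adjusted p = 0.973), against 4.39% of all genes. DESeq2 called 0 of the 5, and 1 of all 11852 genes tested.

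In some ewes a single state held most UMI of a gene, and the part of such states in the differences between ewes was not tested. In LLS ewe 1 the CYP19 state held 807 of 1375 INHA UMI, 1184 of 1839 INHBA UMI and 54 of 103 FSTL3 UMI. The same state held 573 of 968 INHA UMI in HLS ewe 1. In LLS ewe 2 the MX1 state held 345 of 403 FSTL3 UMI. Without LLS ewe 1 the log2 fold changes of INHA and INHBA turned to 0.31 and 0.20, and without HLS ewe 2 that of FST turned from 0.05 to -0.59. With the CYP19 state left out, an alternative chosen after the data had been seen, INHA was -0.27, INHBA -0.56 and FSTL3 -0.72.

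**Figure D5:**
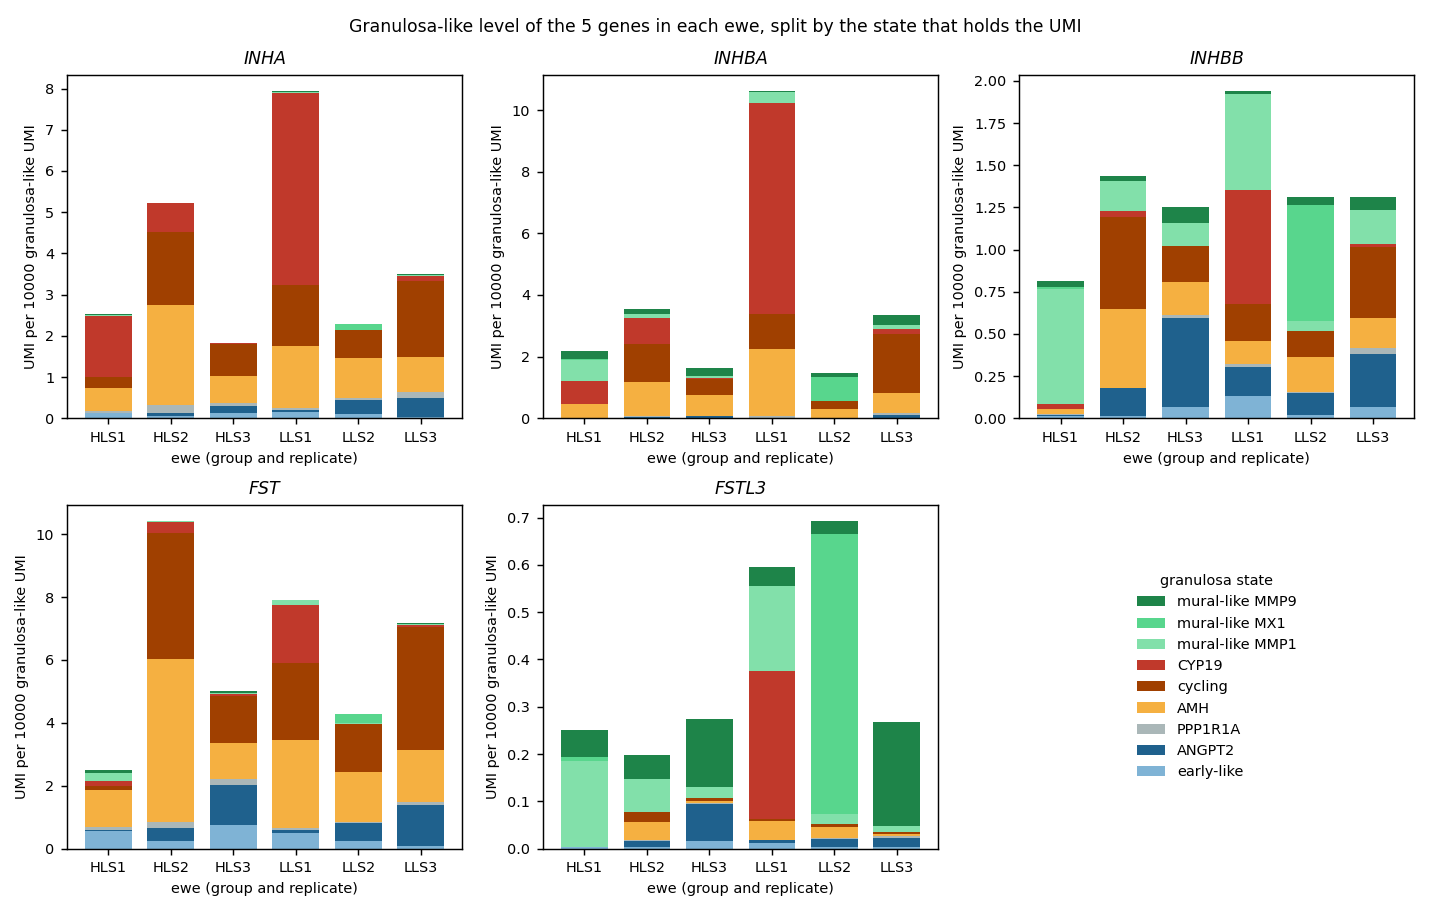
Granulosa-like UMI per 10000 UMI of each gene in the 6 ewes as stacked bars from 0, split by the state that held the UMI. The INHA and INHBA bars of LLS1 are the tallest and mostly the CYP19 state, the FSTL3 bar of LLS2 is mostly the MX1 state, and the HLS and LLS bars overlap in height for every gene.

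The share of granulosa-like cells with a UMI, thinned to 3000 UMI, had groups that did not overlap for 1 gene, INHBB (HLS 23.5 to 24.6%, LLS 25.3 to 39.0%). How many of all genes had such groups on this measure was not computed. INHBB was found in 23.9 ± 0.578% of HLS and 30.3 ± 7.53% of LLS cells (two-sided exact permutation p = 0.1, the smallest that 3 against 3 allows, adjusted p = 0.5 over the 5 genes), a difference that turned to 2.05 points higher in HLS without thinning. Thinned to 1500 UMI, it was found in 12.7 ± 1.56% of HLS and 16.0 ± 3.05% of LLS cells (exact permutation p = 0.3). At 3000 UMI, exact p for the other 4 genes ran from 0.3 to 0.7. Thinning to 3000 UMI left 248 of 267, 362 of 438 and 780 of 877 cells in HLS ewes 1, 2 and 3. In LLS ewes 1, 2 and 3 it left 172 of 256, 450 of 522 and 285 of 366. The INHBA share of β-subunit UMI was 66.7 ± 9.03% in HLS and 69.6 ± 16.1% in LLS granulosa-like cells (exact permutation p = 0.9).

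In the 6 other classes 25 tests of the 5 genes passed the filter on low counts, since INHA and INHBB were too low in perivascular-like cells and INHA, INHBB and FSTL3 in immune-like cells. None was called by edgeR or DESeq2, none had an unadjusted p under 0.05, and none had groups that did not overlap. Over all genes tested, the groups did not overlap for 11.5% in stromal-like, 8.97% in theca-like, 5.14% in endothelial-like, 8.52% in perivascular-like, 10.7% in immune-like and 11.6% in ACTA2-led cells. An unadjusted p under 0.05 was found for 5.44, 3.31, 1.38, 3.07, 4.86 and 6.11% in the same order. The edgeR calls over all genes were 0% in the stromal-like, theca-like, endothelial-like, perivascular-like and immune-like cells and 0.00822% in the ACTA2-led cells. DESeq2 called 3 of 12675 genes in stromal-like, 3 of 12278 in theca-like and 4 of 15036 in endothelial-like cells. It called 2 of 10807 in perivascular-like, 28 of 10037 in immune-like and 12 of 12166 in ACTA2-led cells. Theca-like INHA was 0.729 ± 0.124 in HLS and 0.805 ± 0.188 UMI per 10000 UMI in LLS ewes.

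Enough cells for a test in both groups were found in 5 states, with 19 tests of the 5 genes. None was called by edgeR, as were 0.0127% of genes in the ANGPT2 state and 0% in the early-like, MMP1, MMP9 and PPP1R1A states. An unadjusted p under 0.05 was found in 4 and groups that did not overlap in 4, judged on the TMM-scaled CPM of the fit. Over all genes, an unadjusted p under 0.05 was found for 8.13% in the ANGPT2, 3.51% in the early-like, 2.86% in the MMP1, 3.88% in the MMP9 and 5.02% in the PPP1R1A state.

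INHA in the ANGPT2 state was 0.334 and 0.339 UMI per 10000 UMI in HLS ewes 2 and 3 and 0.558, 2.50 and 1.15 in LLS ewes 1, 2 and 3. All 3 LLS values lay above both HLS values, and 23.4% of the 7886 genes tested with these 2 and 3 ewes had groups that did not overlap. The log2 fold change was -2.06 ± 0.45 (SE, edgeR adjusted p = 0.304). HLS ewe 1 had only 9 cells of the state and 2 INHA UMI and was not used. DESeq2 (adjusted p = 0.0164), edgeR without the filter on low counts (1.08e-10) and edgeR with replicate number as a block (0.00590) called this gene. Over all genes tested, 11 of 7886, 129 of 18356 and 20 of 7894 were called, in the same order. The block fit used only ewes 2 and 3 of each group, so LLS ewe 1 was left out of it. Without LLS ewe 1 and without the block, edgeR called 0 of the 5 genes. The call thus depends on the model and on the ewes used.

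FST in the PPP1R1A state was 2.83, 5.45 and 4.75 UMI per 10000 UMI in HLS ewes and 2.00, 1.45 and 1.54 in LLS ewes. Every HLS value lay above every LLS value, and 11.4% of the genes tested in the state had groups that did not overlap. The log2 fold change was 1.51 ± 0.33 (SE, edgeR adjusted p = 0.560). It rests on 37, 83 and 176 UMI in HLS and 10, 21 and 25 in LLS ewes, in a state of low depth. Without the filter on low counts edgeR called it (adjusted p = 0.00712), among 18 genes called of 14187 tested.

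FST had positive log2 fold changes in the MMP9 state (1.59 ± 0.55, edgeR adjusted p = 0.943, 2 ewes against 2) and in the early-like state (0.98 ± 0.45, edgeR adjusted p = 1.0) too. In the ANGPT2 state it was -0.13 ± 0.38. In the MMP9 state FST and, only on the TMM-scaled CPM used in the fit, INHBA had groups that did not overlap (by UMI per 10000 UMI the INHBA values above overlap), as did 35% of all genes tested there, against 9.18% in the early-like and 17.9% in the MMP1 state, where no member had. None of these passed the adjusted threshold.

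The receptors and partners of the ligands were examined as a list of 36 genes, of which 33 had at least 50 UMI over the 7 classes. Of the 33, 6 were higher in granulosa-like cells than in every other class in each ewe: FSHR, the nuclear receptor NR5A2 (1.43 ± 0.588), the signal transducers SMAD2 (1.65 ± 0.530) and SMAD4 (1.07 ± 0.211), and the co-receptors TGFBR3L (0.149 ± 0.0415) and TDGF1 (0.0400 ± 0.0315). Over all genes the share was 2.53%. FSHR was among the markers that named the class, and the list was chosen with earlier results of these data known, so the 2 shares are not an independent comparison. The activin type II receptors ACVR2A (0.0493 ± 0.0161) and ACVR2B (0.0996 ± 0.0208) and the type I receptor ACVR1B (0.0646 ± 0.0177) were low in granulosa-like cells. In theca-like cells they were 0.0398 ± 0.0120, 0.0959 ± 0.0231 and 0.0246 ± 0.00951.

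TGFBR3, which encodes betaglycan, the co-receptor through which inhibin blocks activin receptors, was lower in granulosa-like cells. It was 0.765 ± 0.331 in granulosa-like cells and 2.16 ± 0.518, 2.47 ± 0.691 and 2.44 ± 0.456 UMI per 10000 UMI in theca-like, stromal-like and ACTA2-led cells. Among granulosa states it was 1.59 in the ANGPT2 state and 0.283, 0.271 and 0.193 in the MMP1, MX1 and MMP9 states. The MMP9 state also had the highest SMAD7 (3.22), an inhibitor of the pathway, and PCSK5 (1.60), a proprotein convertase, among the 9 states.

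Between HLS and LLS, 25 genes of the list passed the filter in granulosa-like cells. None was called by edgeR and none had an unadjusted p under 0.05, with 14 positive and 11 negative log2 fold changes. Their median was 0.16, beside 0.02 over all genes tested, and without TMM scaling 11 were positive and 14 negative. The largest was LHCGR (-1.55 ± 1.21, SE), a leading gene of the CYP19 state most of whose cells came from LLS ewe 1, and it was 0.91 without that state. FSTL1 alone had groups that did not overlap (0.19 ± 0.16), as did 10.3% of all genes. Without the CYP19 state that share was 9.46%, and an unadjusted p under 0.05 was found for 3.69% of genes and none of the 5.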

How the data were processed

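Per the labels and the study's methods, libraries were made with 3′ v3 reagents and reads were processed by the authors with Cell Ranger 5.0.0, with STAR named as a tool. The genome build is not given in the sources used here. The matrices deposited by the authors hold unnormalized whole-number UMI counts, 1 file set per ewe. Members, marker lists and the pathway list were chosen with earlier results of these data known.

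Of 52290 barcodes, those with at least 200 genes, 1000 UMI and log10 genes at least 0.7 of log10 UMI, and at most 10% mitochondrial and 5% haemoglobin UMI, were kept (38464). A neighbour test against 2 simulated doublets per cell removed 2007 doublets. Log-normalized counts of 2000 variable genes without the 5 members were reduced to 30 principal components and clustered (20 neighbours, resolution 0.8) with leidenalg 0.10.2. Granulosa-like cells were clustered again (20 components, resolution 0.5), and 267 cells in 2 sub-clusters were left out. The first was led by LOC101106925, GTL2 and PECAM1. The second was led by LOC101117443 and CYTL1, with FSHR at 0.148 and CDH2 at 0.0847 UMI per 10000 UMI. Its other granulosa genes were not low, with FOXL2 and WT1 both at 1.76. It scored 1.39 for the early list, against 1.11 in the early-like state that was kept. INHA in it was 0.551 and FST 0.106, and the effect of its omission on the early-like levels was not tested. The ACTA2-led class and that omission were decided after the clusters had been seen. A class name needed a marker score of at least 0.5.

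Counts were summed per ewe and class (at least 10 cells) or state (at least 20). HLS and LLS were compared by glmQLFTest in edgeR 4.0.16 after filtering and TMM scaling, with Benjamini-Hochberg adjustment over all genes tested, and with DESeq2 1.42.0 as an alternative, in R 4.3.3. The SE of an edgeR log2 fold change was derived from the test, as its size divided by the square root of the F statistic. The edgeR step was tested on simulated sums like those of the granulosa-like cells only. Fits in other classes and in the states were not simulated. Levels between classes or states were compared within ewes on log2(CPM + 1) with TMM factors, a scale that understates changes of low genes, by two-sided exact sign-flip tests, and groups by exact permutation tests. Named genes were the 5 members, the pathway list, the 3 genes most correlated with each member (among those with a mean of at least 1 UMI per 10000 UMI), the 5 leading genes of each state and markers. Depth was 43329214 to 75549906 UMI per library. Nothing states that libraries were prepared in separate batches. No sequences are shown. Intervals and floors (3 counts) cover counting error only.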

Additional observations from a re-analysis of the deposited data

How the results depend on the processing

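With 3 ewes a group, single libraries set the direction of most granulosa-like differences between HLS and LLS, and none of the 5 genes passed the adjusted threshold there in any setting. Leaving out 1 ewe at a time moved the log2 fold change of INHA from -0.81 (without HLS ewe 2) to 0.31 (without LLS ewe 1), of INHBA from -1.29 (without LLS ewe 2) to 0.20 (without LLS ewe 1), of FST from -0.59 (without HLS ewe 2) to 0.39 (without HLS ewe 1), of INHBB from -0.35 to -0.02 and of FSTL3 from -1.22 to -0.61. FST, at 0.05, also turned to -0.11 without TMM factors (which moved the median of all genes from 0.02 to -0.16), -0.13 with a replicate block, -0.015 at a mitochondrial limit of 20%, -0.018 at 2 times the resolution and -0.16 without LLS ewe 2; the cause was not tested. The INHBA share of β-subunit UMI, HLS minus LLS, ranged from -11.4 to 4.56 percentage points over the ewes left out (2.30 without HLS ewe 3). The difference in cells with a UMI ranged from -13.98 to 3.01 points for INHA and from -4.78 to 14.3 for FST, and without thinning it was 2.05 for INHBB and -1.08 for FSTL3. In the ANGPT2 state 1 member (INHA) was called without the filter on low counts, 1 by DESeq2 and 1 with the replicate block, against 0, and in the PPP1R1A state 1 (FST) without the filter. Over all genes tested, the calls were 129 of 18356, 11 of 7886 and 20 of 7894 in those fits of the ANGPT2 state. In that fit of the PPP1R1A state they were 18 of 14187. Nothing in the sources states that replicate numbers pair the ewes. Correlations of same-numbered ewes ran from -0.34 to 0.28, and for number 3 from 0.0035 to 0.28. With 3 ewes a group these correlations cannot decide whether the numbers mark pairs. With the replicate block 33 genes were called over the 11 classes and states it could be run in, where 2 were called in 12 without it. The block fit kept only replicate numbers found in both groups. It thus left out LLS ewe 1 in the ANGPT2 state (20 calls) and HLS ewe 2 in the MMP1 state (9 calls). Leaving out the same ewes without the block gave 4 and 0 calls. Genes called over the 12 numbered 529 without the filter and 66 by DESeq2. Granulosa-like cells were higher in every ewe in 29 of 30 pairs of gene and class in the other alternatives too. At 2 times the resolution no ACTA2-led class was formed, so its pairs with the 5 genes were missing. Of the pairs left there, 24 had granulosa-like cells higher in every ewe. State pairs with every ewe in 1 direction ran from 68.6 to 77.6% (74.4% as reported), with no share over all genes computed beside them. Depth limits the PPP1R1A and CYP19 states and FSTL3 in most states.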
